A study of Rattus norvegicus with 30 samples.

Results

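Gene expression in the hearts of old rats was compared with that in the hearts of young rats across the whole genome, and not for mitochondria-related genes alone. The comparison used 20 of the 30 arrays in the series, namely all 10 arrays of rats aged 78 weeks and all 10 arrays of rats aged 8 weeks, with 5 females and 5 males at each age and 1 rat per array. All rats were untreated animals of the inbred Fischer F344 strain, and the tissue was labeled as heart, with no chamber named. The 10 arrays of 21-week rats were not used here. Single-colour Agilent rat arrays were hybridized with Cy3-labeled cRNA, and a level below is log2 of a spot's signal relative to its array's 75th percentile. A difference is the level at 78 weeks minus the level at 8 weeks with gender as a term, in log2 units, and a gene was called at a limma adjusted p under 0.05.

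The arrays lay on 5 slides of 4. Slides 1 and 2 held only young hearts, slides 4 and 5 held only old hearts, and slide 3 held 2 young and 2 old hearts, with 1 female and 1 male of each age. Slides 1 to 4 were scanned on the same day (scan 1, 10 young and 6 old arrays) and slide 5 on another (scan 2, 4 old arrays). The study's methods state that rats of different ages were handled in different batches, and for that reason age was not evaluated there. Outside slide 3, age and slide cannot be told apart. Counts within scan 1, which removes the difference in scan day but not in slide, and medians within slide 3 are given for the main gene groups. The labels do not tie the arrays to separate litters or cages, and the p-values measure the spread between these 20 rats.

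The adult heart is built from cardiomyocytes, which hardly divide after the first weeks of life, together with fibroblasts, endothelial cells, pericytes, resident macrophages and a small number of other cells. Fibroblasts lay down fibrillar collagens and the enzymes that modify and cross-link them, and this synthesis is high while the heart grows. Dividing cells of any type transcribe a shared set of mitotic genes, many of which have CCAAT boxes and a cell cycle homology region (CHR) before their start, and the circadian clock of heart cells is driven by a loop of activators and repressors that act on E-boxes and on ROR elements.

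Promoters of genes that moved together are shown first. Each is the 250 bases before the annotated start on the gene's own strand, from RefSeq on the GRCr8 assembly, with the searched letters in capitals. The cell division genes Cdk1, Plk1 and Bub1b were lower at 78 weeks, and in them the capitals mark CCAAT boxes (CCAAT, or ATTGG on the other strand) and CHR elements (TTTGAA or TTCGAA). The clock genes Bmal1, Tef and Bhlhe41 were changed in opposite directions, and in them the capitals mark the ROR core site AGGTCA and the E-box CACGTG.
Cdk1 (chr20:19265043-19265292, plus strand): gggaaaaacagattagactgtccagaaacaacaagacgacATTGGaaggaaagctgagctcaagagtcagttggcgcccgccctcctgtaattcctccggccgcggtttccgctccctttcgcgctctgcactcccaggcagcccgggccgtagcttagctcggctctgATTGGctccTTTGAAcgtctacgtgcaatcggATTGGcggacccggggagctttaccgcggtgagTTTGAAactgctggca
Plk1 (chr1:186147408-186147657, plus strand): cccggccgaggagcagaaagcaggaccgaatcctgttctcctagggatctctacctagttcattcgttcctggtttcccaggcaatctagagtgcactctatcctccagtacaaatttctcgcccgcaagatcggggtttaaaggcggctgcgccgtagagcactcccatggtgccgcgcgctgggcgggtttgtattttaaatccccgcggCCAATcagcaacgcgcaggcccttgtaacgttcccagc
Bub1b (chr3:126016817-126017066, plus strand): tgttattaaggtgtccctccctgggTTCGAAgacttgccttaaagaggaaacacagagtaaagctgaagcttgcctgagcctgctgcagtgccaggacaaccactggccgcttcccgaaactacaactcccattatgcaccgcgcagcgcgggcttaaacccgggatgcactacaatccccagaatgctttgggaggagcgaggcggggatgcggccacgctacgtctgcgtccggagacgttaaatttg
Bmal1 (chr1:176766078-176766327, plus strand): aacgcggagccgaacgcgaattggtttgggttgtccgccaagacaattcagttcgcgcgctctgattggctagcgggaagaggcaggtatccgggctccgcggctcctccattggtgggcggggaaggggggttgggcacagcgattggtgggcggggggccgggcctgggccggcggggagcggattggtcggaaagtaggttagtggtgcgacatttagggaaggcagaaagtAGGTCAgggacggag
Tef (chr7:115206577-115206826, plus strand): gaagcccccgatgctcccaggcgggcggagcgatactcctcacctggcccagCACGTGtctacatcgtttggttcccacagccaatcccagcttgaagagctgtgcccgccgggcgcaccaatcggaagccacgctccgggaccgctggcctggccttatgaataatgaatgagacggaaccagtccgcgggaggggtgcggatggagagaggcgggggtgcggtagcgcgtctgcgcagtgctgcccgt
Bhlhe41 (chr4:180569356-180569605, minus strand): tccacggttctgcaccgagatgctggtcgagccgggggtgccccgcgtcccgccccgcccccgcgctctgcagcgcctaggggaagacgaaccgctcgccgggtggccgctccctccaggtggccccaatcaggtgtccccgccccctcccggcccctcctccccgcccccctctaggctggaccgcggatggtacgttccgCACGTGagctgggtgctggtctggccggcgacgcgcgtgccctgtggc

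Counted back from the start, Cdk1, which encodes the kinase that drives entry into mitosis, had CCAAT boxes beginning 210, 81 and 49 bases before it and CHR letters at 72 and 16 bases. Plk1, the polo-like kinase of the mitotic spindle, had a CCAAT box at 38 bases, and Bub1b, a spindle checkpoint kinase, had CHR letters at 225 bases. Both strands of every promoter were searched. Of the 28 tested cell division genes with a promoter in the table, 19 held a CCAAT box and 12 held CHR letters, while 34.0% and 17.4% of all 33469 promoters of this length did. Bmal1, the activator of the clock, had AGGTCA at 15 bases, and Tef and Bhlhe41, a transcription factor of the clock output and a clock repressor, had CACGTG at 198 and 48 bases. Among the 11 tested clock genes with a promoter, 3 held the E-box and 2 held the ROR core site, compared to 5.59% and 14.1% of all promoters. These matches describe the letters only.

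The arrays of the 2 ages overlapped in brightness, but the brightest arrays were of young hearts. Between 21371 and 24290 of the 43379 spots that are not controls were well above background on each array, and the 75th percentile of the processed signal ranged from 98.0 to 171.3 in young and from 83.5 to 123.6 in old hearts. All 16 cardiomyocyte markers on the list were well above background on enough arrays to be tested. In the authors' normalized tables, made separately for each age, the Y-linked genes Ddx3y and Eif2s3y went against the gender label of 2 arrays of 78 weeks. In the array labeled female replicate 2 their levels were -1.68 and 0.58, while the other 9 arrays labeled female lay between -6.68 and -6.14 and between -6.67 and -6.33. In the array labeled male replicate 3 they were -6.25 and -6.37, while the other 9 arrays labeled male lay between -2.06 and -1.52 and between 0.12 and 0.69. Both arrays are labeled as 78 weeks, and Y-linked genes cannot check the age of a sample. The 2 arrays were kept as labeled, and 4510 genes were called between ages when both were left out. The array of female replicate 4 at 78 weeks stood apart on the second principal component, which carried 17.3% of the variance (75.1, against -15.8 to 21.4 for the other 19 arrays), and the array of male replicate 4, on the same slide, was next (21.4).

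Of 17754 genes tested, 5237 (29.5%) were called between old and young hearts. Of these, 2678 (15.1%) were higher and 2559 (14.4%) were lower at 78 weeks. Each count of list members below is to be read beside these 2 shares, or beside 18.6% and 18.3% within scan 1. Leaving out arrays also changed the counts over all 17754 genes. Without female replicate 4 at 78 weeks 3379 genes were higher and 3237 lower, and without male replicate 4 at 78 weeks 2862 and 2852. Without both, 3791 were higher and 3783 lower. List counts from such fits are to be read beside these. Most differences were small. Only 179 genes (1.01%) were at least 2-fold higher and 97 genes (0.546%) at least 2-fold lower among those called, and the median difference over all genes was 0.01. For 712 genes (4.01%) the 10 old and the 10 young hearts did not overlap, with 335 (1.89%) higher and 377 (2.12%) lower in old hearts. Centring each array on its median in place of the 75th percentile gave 1437 genes higher and 2813 lower, and normexp background correction reduced the number of genes called to 2311. Folds below are those of the main fit. Of 155 named genes that were called, 89 were also called in the same direction under normexp background correction. In 91 of the 155 the difference there was over 1.5 times smaller or turned.

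The genes that were higher by the most in old hearts included enzymes, secreted factors and adaptor proteins. The 15 largest were taken from 153 genes that were called both with all arrays and within scan 1, were well above background on all arrays and did not overlap between ages. The leader was Maoa, monoamine oxidase A, the mitochondrial enzyme that breaks down noradrenaline and serotonin. Its level was lowest at 1.14, median 1.31 and highest at 1.61 in young hearts, and 3.40, 3.86 and 4.72 in old hearts. Every old heart was above every young heart, and the difference was 2.54 ± 0.12 (SE, 5.84-fold, limma adjusted p = 2.5e-11, n = 10 per age). A second Maoa probe gave 2.25, and the 2 old and 2 young hearts on slide 3 differed by 2.76.

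**Figure D1:**
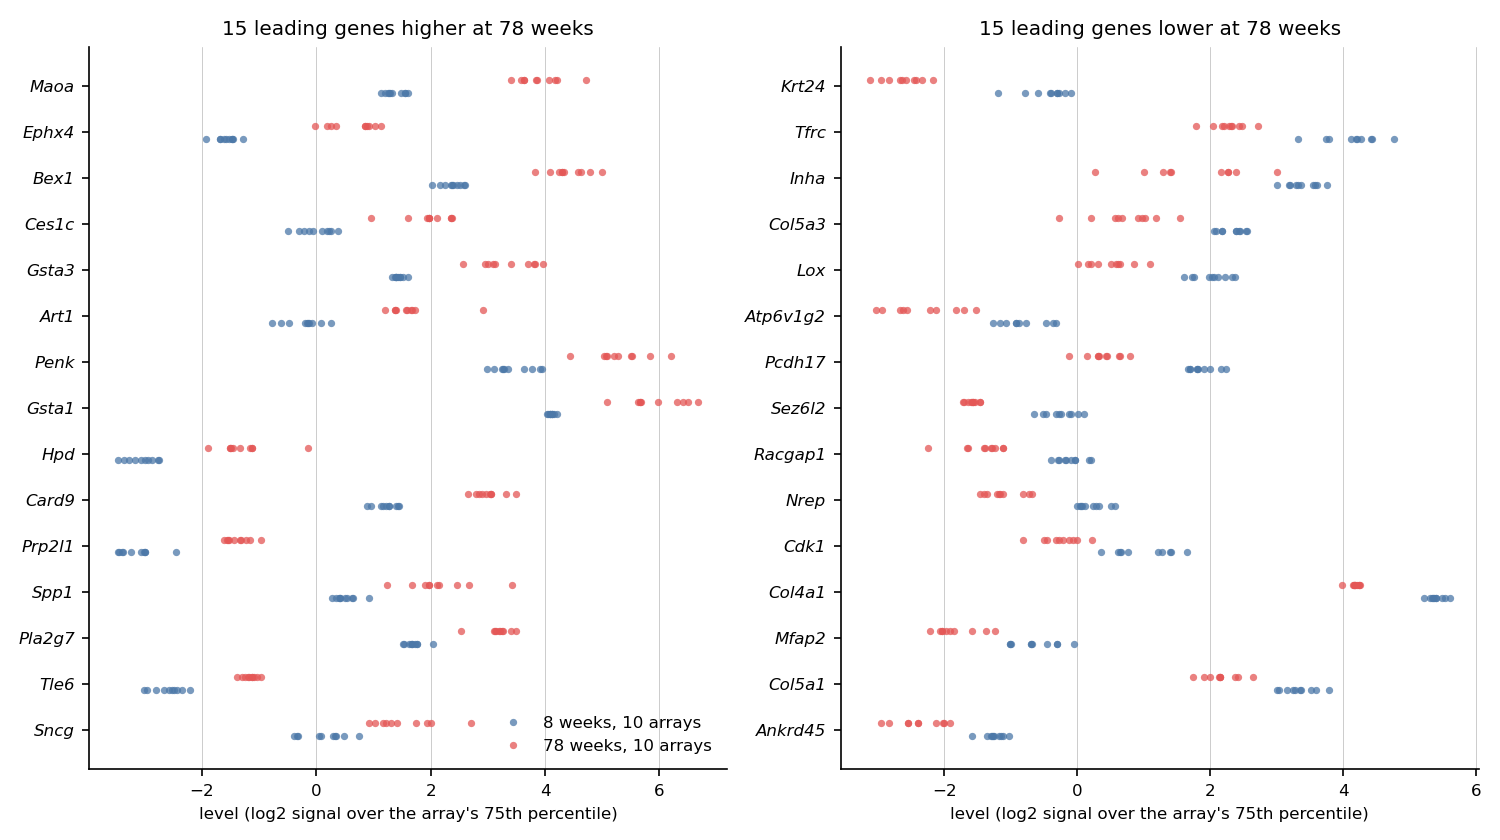
Level of the 15 leading genes in each direction in every array (x axis, log2 signal relative to each array's 75th percentile; blue, 10 young hearts of 8 weeks; red, 10 old hearts of 78 weeks; 1 gene per row). No old heart overlaps a young heart in any of the 30 genes, which the rule for choosing them required; for Maoa the blue points end at 1.61 and the red ones begin at 3.40.

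Several of the leaders encode enzymes. Gsta3 and Gsta1, alpha-class glutathione S-transferases that conjugate electrophiles, were 3.76-fold (1.91 ± 0.14) and 3.62-fold (1.85 ± 0.14) higher in old hearts. Young hearts lay within a narrow range for Gsta1, from 4.03 to 4.21 with a median of 4.10, whereas old hearts spread from 5.09 over 5.83 to 6.68. The array file lists these probes as Yc2 and Gsta3, and since the members of this family are similar in sequence, a probe may read more than 1 of them. Ephx4, an epoxide hydrolase family member, was 4.66-fold higher (2.22 ± 0.14) and the carboxylesterase Ces1c 3.91-fold higher (1.97 ± 0.15). Pla2g7, which hydrolyses platelet-activating factor, was 2.79-fold higher (1.48 ± 0.09), and Hpd, an enzyme of tyrosine breakdown, was 3.47-fold higher (1.80 ± 0.16). Hpd differed by 0.78 under normexp background correction and by 0.86 in raw signal without background subtraction.

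The other leaders have varied roles. Penk encodes proenkephalin, the precursor of opioid peptides. Its level ran from 2.99 over 3.32 to 3.94 in young hearts and from 4.44 over 5.23 to 6.20 in old hearts, a 3.64-fold difference (1.86 ± 0.18, adjusted p = 2.78e-07). Spp1, which encodes the secreted matrix protein osteopontin, ran from 0.28 over 0.46 to 0.93 in young and from 1.24 over 2.05 to 3.42 in old hearts (1.65 ± 0.17, 3.14-fold, adjusted p = 1.06e-06). Old hearts were spread more widely than young hearts for both genes. Bex1, a brain-expressed X-linked gene, was 4.09-fold higher (2.03 ± 0.12), Art1, an ADP-ribosyltransferase of the muscle surface, 3.66-fold higher (1.87 ± 0.16), and Sncg, gamma-synuclein, 2.67-fold higher (1.42 ± 0.19). Male replicate 3 was highest in Sncg at each age (0.75 and 2.71) and also highest in the fat cell markers described below. The lowest Sncg hearts, young male replicate 5 (-0.39) and old female replicate 1 (0.92), were not the lowest in those markers. The part of attached fat in the Sncg difference was not tested. Card9, an adaptor of innate immune signalling, was 3.47-fold higher (1.79 ± 0.10). Prp2l1 was 3.43-fold higher (1.78 ± 0.12) and the corepressor family member Tle6 2.71-fold higher (1.44 ± 0.09). Prp2l1 and Tle6 differed by 0.76 and 0.62 under normexp background correction and by 0.82 and 0.64 in raw signal.

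Cnpy1, a member of the canopy family of proteins that act on fibroblast growth factor signalling, was well above background in all 10 old hearts and in none of the 10 young hearts. Its level was -1.03 at the lowest, -0.46 at the median and -0.11 at the highest in old hearts, and -6.41, -6.05 and -5.86 in young hearts. Measured against the lowest detectable processed signal, Cnpy1 was at least 10.0-fold higher in old hearts. This bound (3.33 in log2) rests on the mean of the old arrays and the detection limit of each young array. The limma adjusted p of 1.61e-18 is from the fit of all values and not from the bound. The difference was 1.54 under normexp background correction and 1.91 in raw signal, both smaller than the bound, which holds for the processed signal only. A second probe of the gene differed by 4.32, and slide 3 alone gave 5.16 with an adjusted p of 0.0491. Sugct, a mitochondrial CoA-transferase, was likewise undetected in all young hearts and at least 1.62-fold higher in old hearts (0.70 in log2). Its difference was 0.47 under normexp background correction and 0.41 in raw signal, both below that bound. Tmeff1, a membrane protein, was undetected in all old hearts and at least 1.49-fold lower. Normexp background correction turned the Tmeff1 difference to 0.15, and raw signal gave -0.09. The limma adjusted p of Sugct (6.97e-05) and Tmeff1 (0.000189) are from the fit of all values and not from the bounds. Cnpy1, Sugct and Tmeff1 passed the filter on dim probes only through the age at which they were detected.

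The 15 leading genes in the other direction, from 251 that met the same criteria, included matrix, cell division and iron uptake genes. Tfrc encodes the transferrin receptor, which takes iron into cells. In young hearts its level was 3.32 at the lowest, 4.20 at the median and 4.77 at the highest, and in old hearts 1.78, 2.30 and 2.72. The groups did not overlap, and old hearts were 3.61-fold lower (-1.85 ± 0.14, adjusted p = 1.07e-08), with -2.01 from a second probe. The keratin gene Krt24 was 4.47-fold lower (-2.16 ± 0.13), but its difference was -0.62 under normexp background correction and -1.03 in raw signal. Inha, the inhibin alpha subunit, was 3.12-fold lower (-1.64 ± 0.24), with -1.01 in females and -2.27 in males, a difference between genders that did not pass the adjusted test.

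The other leaders on the lower side also have varied roles. Pcdh17, a protocadherin, was 2.80-fold lower (-1.48 ± 0.09), Sez6l2 2.51-fold lower (-1.33 ± 0.07) and Nrep 2.51-fold lower (-1.33 ± 0.11), each with a second probe that differed in the same direction. Atp6v1g2, a subunit of the proton pump of vesicles, was 2.84-fold lower (-1.51 ± 0.19), and Ankrd45 was lower (-1.12 ± 0.12). Under normexp background correction Atp6v1g2 differed by -0.40 (adjusted p = 0.0451). Ankrd45 differed by -0.26 there (adjusted p = 0.101), so no fold is given for it. The remaining genes, Col5a3, Lox, Col4a1, Mfap2, Col5a1, Racgap1 and Cdk1, belong to matrix assembly and to cell division.

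Cell division genes were lower in old hearts as a group. Of 50 genes on the list 33 were tested, and 25 of them were called lower and 0 higher, compared to 14.4% and 15.1% of all genes. The median difference of the list was -0.92, while that of all genes was 0.01. For 11 members the old hearts lay below the young hearts without overlap, compared to 2.12% of all genes. The list median was -0.60 in females and -1.08 in males. The mean level of the list already differed between young hearts, from -1.53 to -1.26 in females and from -0.96 to -0.70 in males, while all old hearts lay between -2.30 and -1.64. Cdk1, whose promoter is printed above, ran from 0.34 over 0.99 to 1.65 in young hearts and from -0.81 over -0.24 to 0.22 in old hearts (-1.25 ± 0.14, 2.38-fold lower, adjusted p = 1.67e-06). The lowest young heart was above the highest old heart, although by a small margin. Its difference was -0.86 in females and -1.65 in males, which did not pass the adjusted test between genders (adjusted p = 0.983, unadjusted p = 0.00162).

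Racgap1, which organizes cytokinesis, ran from -0.40 over -0.14 to 0.21 in young and from -2.24 over -1.35 to -1.11 in old hearts (-1.33 ± 0.12, 2.51-fold lower, adjusted p = 1.08e-07). Plk1 was 2.08-fold lower (-1.06 ± 0.10) and Bub1b was lower (-1.22 ± 0.13). The Bub1b difference was -0.17 under normexp background correction (adjusted p = 0.282) and -0.41 in raw signal, so no fold is given for it. The proliferation markers Top2a and Mki67 differed by -1.32 ± 0.18 and -1.33 ± 0.30, and Mki67 was well above background in 6 old hearts against 10 young hearts. The members not called included the replication genes Mcm2 (-0.15), Mcm3 (-0.22) and Mcm7 (-0.15), the cyclins Ccne1 (0.08) and Ccne2 (0.15), and the kinases Aurka (0.01) and Aurkb (-0.01). These members were named after their values were seen, as were other list members below that are not among the 4 smallest adjusted p of their list. Within scan 1 the list gave 24 lower and 0 higher (18.3% and 18.6% of all genes), and within slide 3 its median difference was -0.78. Normexp background correction left 7 lower and a median of -0.09. In bulk tissue, fewer cells of a type and less RNA per cell cannot be told apart, here and below.

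**Figure D2:**
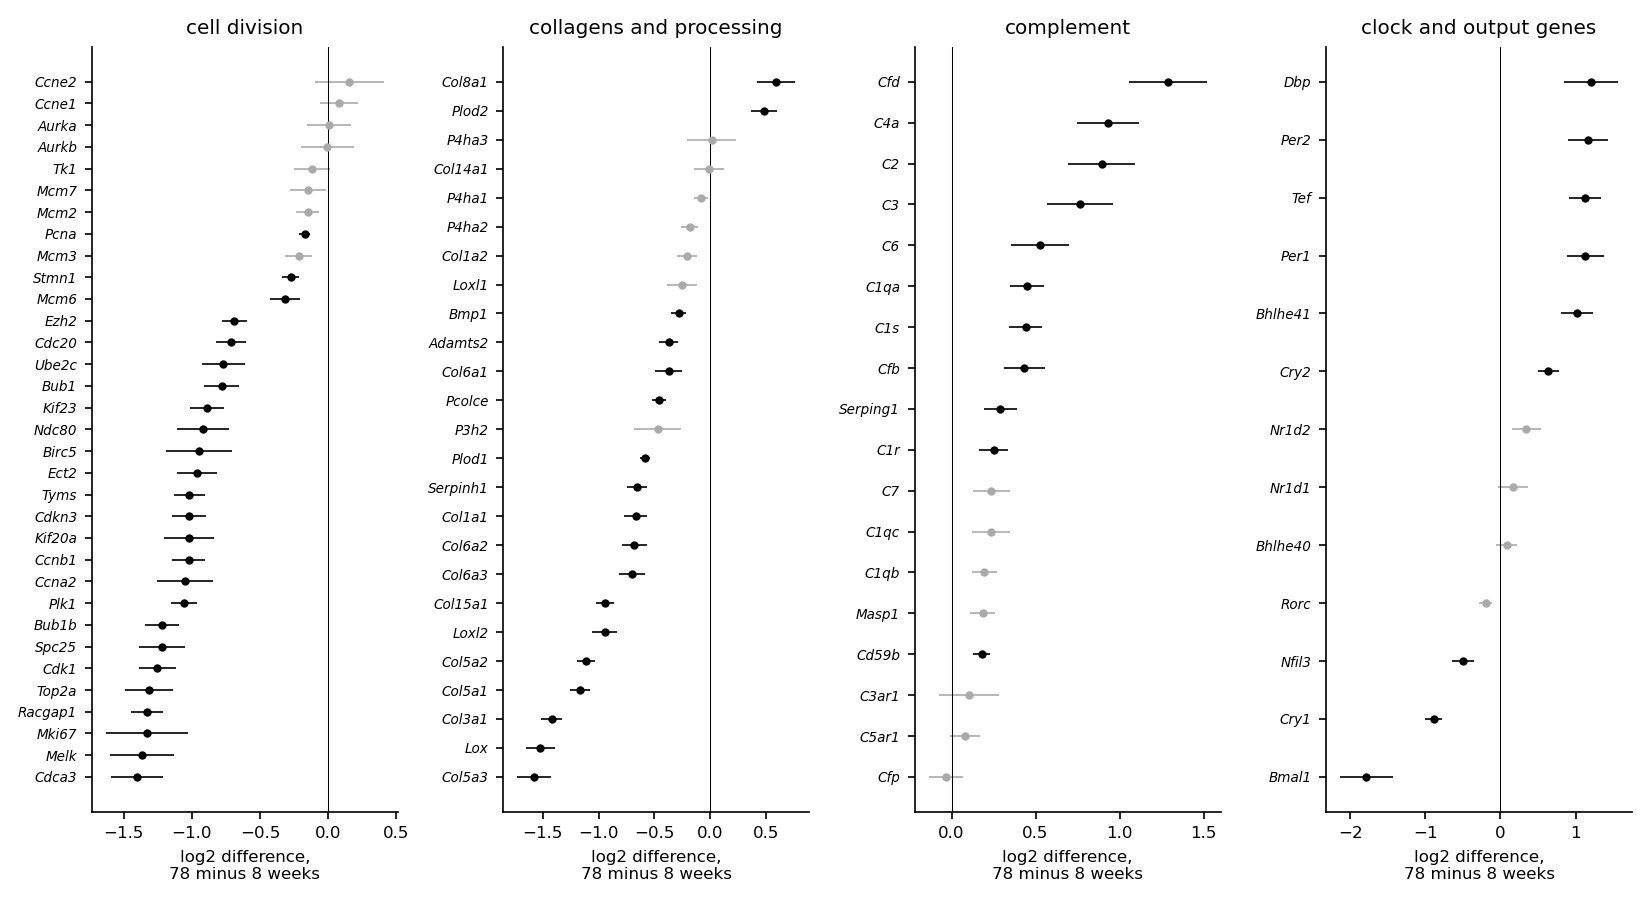
Difference of the tested members of 4 gene lists, 1 complement gene not drawn (x axis, log2 difference, 78 minus 8 weeks; points, estimate; bars, SE; black, called; grey, not called; 10 hearts per age). Cell division and collagen genes lie mainly left of 0 with median differences of -0.92 and -0.47, complement genes mainly right of it with 0.29, and clock genes on both sides, from Bmal1 at -1.78 to Dbp at 1.20.

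Collagen genes and the genes that process collagen were lower in old hearts. Of 25 tested members 16 were called lower and 2 higher, with a median difference of -0.47. Col3a1, a main fibrillar collagen of the heart, had levels of 7.44 at the lowest, 7.70 at the median and 8.01 at the highest in young hearts and 5.85, 6.25 and 6.65 in old hearts (-1.42 ± 0.09, 2.67-fold lower, adjusted p = 4.63e-09). The ranges did not overlap, slide 3 alone gave -1.44, and 1 old array was left out because its spot was marked as an outlier. Col5a1, Col5a2 and Col5a3, the chains of type V collagen that regulate fibril diameter, were 2.25-fold, 2.16-fold and 2.98-fold lower. Col1a1 was 1.59-fold lower (-0.67 ± 0.10) by its main probe, while its 2 other probes gave -1.73 and -1.71, and Col1a2 was not called (-0.21).

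Several enzymes that act on collagen were lower as well. Lox, the lysyl oxidase that cross-links collagen and elastin, ran from 1.61 over 2.04 to 2.37 in young and from 0.01 over 0.54 to 1.10 in old hearts (-1.52 ± 0.13, 2.87-fold lower, adjusted p = 7.21e-08). Plod1, a lysyl hydroxylase, was 1.5-fold lower (-0.58 ± 0.04), and young hearts (3.20 to 3.42) stayed above old hearts (2.61 to 2.86). The exceptions were Plod2, another lysyl hydroxylase (0.48 ± 0.12), and Col8a1, a short-chain collagen (0.59 ± 0.17), which were higher in old hearts. The matrix proteases Mmp2 and Mmp14 were 1.51-fold and 1.76-fold lower. The collagen counts were 17 lower and 2 higher within scan 1 and 14 lower and 1 higher under normexp background correction, and the slide 3 median was -0.52.

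Basement membrane and matrix glycoprotein genes were divided. Of 35 tested members 15 were called lower and 3 higher, with a median of -0.18 (13 and 4 within scan 1, slide 3 median -0.08). Col4a1, the main collagen of basement membranes, ran from 5.22 over 5.38 to 5.6 in young hearts and from 3.98 over 4.17 to 4.25 in old hearts (-1.23 ± 0.05, 2.34-fold lower, adjusted p = 7.24e-13), although a second probe of Col4a1 gave 0.31 and was not called. Nid1, which links laminin to type IV collagen, was 2.02-fold lower (-1.01 ± 0.06), and its other 2 probes gave -0.65 and -0.64. Sparc, a collagen-binding glycoprotein, was 2.02-fold lower (-1.02 ± 0.06, 19 arrays). Fbn2, the fibrillin of growing elastic tissue, was lower (-1.87 ± 0.16) but above background in 3 old hearts only, and the difference was -0.20 under normexp background correction (adjusted p = 0.244) and -0.56 in raw signal without background subtraction, so no fold is given. Eln, which encodes elastin, was 3.36-fold lower (-1.75 ± 0.27). The small proteoglycan Bgn (0.51 ± 0.06), Prelp (0.25 ± 0.08) and Efemp1 (0.44 ± 0.07) were higher in old hearts.

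Some markers of vessel cells were lower. Among 14 tested endothelial markers 7 were called lower and 1 higher, with a median of -0.19, and the counts were the same within scan 1 (slide 3 median -0.28). Emcn, endomucin of capillaries and veins, lay at 1.32, 1.40 and 1.58 (lowest, median and highest) in young and at 0.76, 0.97 and 1.16 in old hearts (-0.49 ± 0.05, 1.40-fold lower, adjusted p = 1.62e-06). The receptor Tie1 was 1.63-fold lower (-0.71 ± 0.10) and Egfl7 1.26-fold lower (-0.33 ± 0.07). The junction protein Cdh5 was also lower (-0.73 ± 0.13), but differed by -0.18 under normexp background correction (adjusted p = 0.189), so no fold is given for it. Other defining markers did not follow, since Pecam1 differed by 0.08 and Flt1 by -0.09, neither called, and Vwf was higher (0.16). Of 11 smooth muscle and pericyte markers 2 were called lower and 1 higher, with a median of 0.10, and within scan 1 the counts were 2 lower and 5 higher (slide 3 median 0.15). The pericyte markers Rgs5 and Pdgfrb were 1.32-fold and 1.27-fold lower without overlap between ages, whereas the smooth muscle myosin Myh11 was higher (0.48 ± 0.14). The summed level of the endothelial list, in which bright members weigh most, overlapped between ages, from 6.72 to 6.92 in young and from 6.5 to 7.15 in old hearts. The mean log2 level of the same list did not overlap, from 1.124 to 1.26 in young and from 0.853 to 1.085 in old hearts. Fabp4 is on both the endothelial list and the list of fat cell markers. The old heart with the highest endothelial sum (7.15), male replicate 3, also had the highest sum of fat cell markers, and the part of attached fat was not tested.

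Immune genes were higher in parts. Complement genes, which tag cells and debris for removal, gave 12 called higher and 0 lower among 19 tested, with a median difference of 0.29. Cfd, the protease of the alternative pathway that fat cells secrete, ran from 3.65 over 3.91 to 5.24 in young and from 4.66 over 5.32 to 6.42 in old hearts (1.29 ± 0.23, 2.44-fold higher, adjusted p = 0.000326). The groups overlapped at their edges. C4a was 1.91-fold higher (0.93 ± 0.18) and C2 1.86-fold higher (0.89 ± 0.20), while the subunits C1qb (0.20, 19 arrays) and C1qc (0.23) were not called beside C1qa (0.45 ± 0.10). Rats have closely related C4 genes, which a probe may not separate. Complement counts were 12 higher and 0 lower in scan 1, with a slide 3 median of 0.41, and 8 higher under median centring, but 2 higher under normexp background correction.

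Genes of antigen presentation by MHC class I had 5 members called higher and 0 lower among 14, with a median of 0.28 that turned to -0.03 under normexp background correction. Psmb8, a subunit of the immunoproteasome, ran from 2.13 over 2.29 to 2.57 in young and from 1.40 over 2.96 to 3.71 in old hearts (0.55 ± 0.17, adjusted p = 0.0217). The lowest value of the old hearts was that of female replicate 4, below every young heart. B2m, the light chain of class I molecules, was 1.21-fold higher (0.27 ± 0.09), RT1-A2 1.27-fold (0.34 ± 0.11) and RT1-M3-1 1.30-fold (0.38 ± 0.11), and RT1 genes are a family with similar sequences. The calls of RT1-A2 and B2m were lost when some single arrays were left out, with adjusted p up to 0.0542. Without female replicate 4 at 78 weeks 9 members were called, and without female replicate 4 at 8 weeks 3. Without the 2 arrays at odds with their gender label 1 was called. Scan 1 alone gave 8 higher and 0 lower, and the slide 3 median was 0.38. Of 7 class II genes only Ctss, a lysosomal protease of macrophages, was called (0.37 ± 0.11), and the list median was -0.07.

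Interferon-stimulated genes gave counts that depended on the arrays. Of 30 tested, 7 were called lower and 1 higher with all arrays, with a median of -0.06, but within scan 1 there were 5 in each direction, and the slide 3 median was 0.11. Mx2, an antiviral GTPase, was lower (-0.91 ± 0.18, adjusted p = 0.000749). The Mx2 difference was -0.11 under normexp background correction (adjusted p = 0.474) and -0.40 in raw signal, so no fold is given for it. Irf9 was 1.21-fold lower (-0.28 ± 0.06) and Rig1, a sensor of viral RNA, 1.33-fold lower (-0.41 ± 0.09), although a second Rig1 probe gave -0.03. Leaving out male replicate 1 or male replicate 4 at 8 weeks brought the number of members called to 5, and leaving out female replicate 4 at 78 weeks brought it to 12.

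Some macrophage markers were higher, and lymphocyte markers depended on an array. Of 14 macrophage and monocyte markers 6 were called higher and 0 lower, with a median of 0.21 (7 and 1 within scan 1, slide 3 median 0.19). Mrc1, the mannose receptor of resident macrophages, ran from 1.45 over 1.94 to 2.12 in young and from 2.27 over 2.49 to 2.73 in old hearts (0.58 ± 0.07, adjusted p = 4e-06), without overlap. Cd163, another scavenger receptor of resident macrophages, was 1.88-fold higher (0.91 ± 0.19), Folr2 1.30-fold and Aif1 1.31-fold higher, while Adgre1 (0.08), Csf1r (0.16) and Lyve1 (0.07) were not called. Among 17 T and NK cell markers 1 was called higher (Cd8b) and 1 lower (Klrb1a). Their summed level in female replicate 4 at 78 weeks was 3.34, whereas the other 9 old hearts lay between 5.04 and 5.95 and the young hearts between 4.76 and 5.29. Without that array and male replicate 4, 10 markers of this list were called higher and 1 lower. Klrb1a, an NK cell receptor, differed by -0.56 ± 0.19 with all arrays, and its lowest old heart was again female replicate 4 (-2.91).

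Genes of the circadian clock differed in both directions. Of 13 tested members 6 were called higher and 3 lower, with a median difference of 0.34. Bmal1, the positive arm of the clock, ran from 1.19 over 1.63 to 2.30 in young hearts and from -2.15 over -0.04 to 1.38 in old hearts (-1.78 ± 0.35, 3.45-fold lower, adjusted p = 0.000749). Old hearts covered a wide range, and the highest of them lay within the range of young hearts. Cry1, a repressor, was 1.85-fold lower (-0.89 ± 0.11) and Nfil3, a repressor of clock output, was also lower (-0.50 ± 0.14).

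Several clock genes that peak in the opposite phase to Bmal1 were higher. Tef ran from -1.99 over -1.26 to -0.78 in young and from -0.94 over 0.03 to 0.56 in old hearts (1.13 ± 0.21, 2.18-fold higher, adjusted p = 0.00045). Bhlhe41 was 2.03-fold higher (1.02 ± 0.21), with 1.01 from a second probe. The repressors Per1 and Per2 and the output gene Dbp differed by 1.13 ± 0.24, 1.17 ± 0.27 and 1.20 ± 0.36. Nr1d1 (0.17) and Nr1d2 (0.34), which repress Bmal1 through ROR elements, were not called. Within scan 1 the list again gave 6 higher and 3 lower, and within slide 3 its median was 0.74. The time of day at which each heart was taken is not given in the sources used here, and its part in these differences was not tested.

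Immediate early genes, which respond within minutes to stimuli and to handling of tissue, were higher in part. Of 21 tested 10 were called higher and 0 lower, with a median of 0.25, with the same counts within scan 1 and a slide 3 median of 0.31. Jun ran from 3.92 over 4.17 to 4.50 in young and from 4.47 over 4.64 to 4.85 in old hearts (0.48 ± 0.06, 1.39-fold higher, adjusted p = 8.21e-06). Cebpd was 1.45-fold, Junb 1.38-fold and Myc 1.33-fold higher, and Fos differed most (1.08 ± 0.29). The old hearts overlapped the young hearts in each of these genes. Under normexp background correction Jun (0.15, adjusted p = 0.608), Cebpd (0.17, adjusted p = 0.614) and Myc (0.23, adjusted p = 0.0932) were not called, while Junb was (0.30, adjusted p = 0.0222). The interval between death and freezing is not given in the sources used here, and its part was not tested.

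Genes that mark stress and growth of the ventricle were higher in a subset. Of 20 tested stress and hypertrophy genes 9 were called higher and 2 lower, with a median of 0.26 (0.06 after quantile normalization, and -0.07 with the normexp background). The counts within scan 1 were 8 higher and 4 lower, and the slide 3 median was 0.11. Ankrd1, a stretch-responsive protein of the sarcomere, ran from 7.47 over 7.65 to 7.77 in young and from 7.98 over 8.29 to 8.57 in old hearts (0.63 ± 0.07, 1.55-fold higher, adjusted p = 2.84e-06). Myot, a Z-disc protein, was 2.46-fold higher (1.30 ± 0.15), and Xirp2 (1.55-fold) and Nrap (1.48-fold), proteins of the intercalated disc and of myofibril assembly, were higher too. In all 4 genes no old heart overlapped a young one. Under normexp background correction Ankrd1 (0.29, adjusted p = 0.294), Xirp2 (0.28, adjusted p = 0.325) and Nrap (0.21, adjusted p = 0.415) were not called. Myot differed by 0.63 there and by 0.72 in raw signal.

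Other stress markers were less clear. Nppa, atrial natriuretic peptide, ran from 7.71 over 8.06 to 8.18 in young and from 7.90 over 8.51 to 9.08 in old hearts (0.46 ± 0.13, 1.38-fold higher, adjusted p = 0.0107), with overlapping groups. Nppb, the related peptide of the ventricle, differed by 0.36 ± 0.14 and was not called (adjusted p = 0.0531). Acta1, skeletal actin, which is expressed in the growing heart, was 1.72-fold lower (-0.79 ± 0.17, adjusted p = 0.00213). Spots of Myh6 were saturated on all 20 arrays and those of Myl7 on 18, so their differences are not given as folds, and Myh6 was 0.29 higher in the main fit but -0.01 after quantile normalization. Myh7 (0.26 ± 0.10, adjusted p = 0.0599) was not called.

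Among ion channel and calcium cycling genes 8 of 34 were called higher and 6 lower, compared to 15.1% and 14.4% of all genes (8 and 8 within scan 1, slide 3 median 0.08). Scn4b, a beta subunit of the cardiac sodium channel, ran from 3.15 over 3.51 to 3.82 in young and from 4.44 over 4.93 to 6.25 in old hearts (1.43 ± 0.16, 2.70-fold higher, adjusted p = 2.52e-06, 19 arrays). A second probe gave 1.08, and no old heart overlapped a young one. Kcne1, a potassium channel subunit, was higher (2.06 ± 0.39, adjusted p = 0.000517), with levels from -4.33 to -2.09 in young and from -3.34 to 0.31 in old hearts. Only 6 young hearts were above background, and the difference was 0.83 under normexp background correction and 0.96 in raw signal, so no fold is given. Gap junction genes differed in both directions, with Gjc1 1.33-fold lower (-0.41 ± 0.06), Gja1 1.22-fold lower (-0.29 ± 0.07) and Gja5, the connexin of the atria and the conduction system, 1.29-fold higher (0.36 ± 0.07). Pln, which restrains the calcium pump of the sarcoplasmic reticulum, was 1.32-fold lower (-0.40 ± 0.09, 19 arrays), and the pump gene Atp2a2 differed by 0.02.

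Genes of energy metabolism differed in both directions. In fatty acid oxidation and uptake 8 of 35 were called higher and 2 lower, compared to 15.1% and 14.4% of all genes, with a median of 0.04. Within scan 1 the counts were 7 higher and 6 lower and the slide 3 median was -0.13, and without female replicate 4 at 78 weeks there were 7 in each direction. The largest difference was in Angptl4, an inhibitor of lipoprotein lipase that is induced in fasting, which ran from -3.92 over -2.01 to -0.75 in young and from -1.47 over 0.46 to 1.07 in old hearts (2.25 ± 0.36, 4.78-fold higher, adjusted p = 0.000101). Pdk4, which blocks the use of glucose through pyruvate dehydrogenase, ran from -2.96 over -2.04 to -1.18 and from -1.78 over -1.17 to -0.16 (1.12 ± 0.20, 2.18-fold higher, adjusted p = 0.000383). For both genes the highest young hearts lay within the range of old hearts. Acaa2, the thiolase of the last step of mitochondrial oxidation, was 1.41-fold higher (0.49 ± 0.09) without overlap. The Acaa2 difference was 0.14 under normexp background correction (adjusted p = 0.648). Ppargc1a, the coactivator of mitochondrial biogenesis, was 1.33-fold lower (-0.41 ± 0.08).

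Of 27 glycolytic genes 2 were called higher and 3 lower (1 and 10 within scan 1, slide 3 median -0.14), and the leading members were both forms of the enzyme that makes the main activator of phosphofructokinase. Pfkfb2, the cardiac form, ran from 0.42 over 0.66 to 1.32 in young and from -1.38 over -0.22 to 0.12 in old hearts (-1.05 ± 0.15, 2.07-fold lower, adjusted p = 3.7e-05). Pfkfb1, the form of liver and skeletal muscle, ran from -2.80 over -1.49 to 0.87 in young and from -0.29 over 0.96 to 2.53 in old hearts (2.28 ± 0.45, 4.86-fold higher, adjusted p = 0.000802). Young hearts alone spanned more than 3 units in Pfkfb1. The highest young heart (male replicate 3) and the highest old heart (male replicate 3) in Pfkfb1 also had the highest summed level of fat cell markers at their age, 8.48 and 9.39. The lowest young heart (female replicate 5) and the lowest old heart (male replicate 4) had the lowest, 6.41 and 6.42, and the part of attached fat in the difference was not tested. Hexokinase Hk1 was 1.18-fold and the phosphofructokinase Pfkp 1.40-fold lower. Without female replicate 4 at 78 weeks the glycolytic list had 12 members called, when 6616 of all 17754 genes were called. With male replicate 4 also left out 2 members were higher and 10 lower, when 3791 and 3783 of all genes were.

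For 66 subunits of oxidative phosphorylation the counts were 8 higher and 9 lower, with a median of -0.04, while 4 higher and 19 lower were called within scan 1 (slide 3 median -0.16), 8 and 17 without female replicate 4 at 78 weeks and 3 and 20 after quantile normalization. Atp5f1b, the catalytic beta subunit of ATP synthase, ran from 6.72 over 6.88 to 7.0 in young and from 6.02 over 6.21 to 6.98 in old hearts (-0.50 ± 0.10, 1.41-fold lower, adjusted p = 0.000783, 19 arrays). Atp5f1c (1.18-fold) and the cytochrome oxidase subunit Cox4i2 (1.21-fold) were lower. Ndufb4 of complex I was 1.26-fold higher (0.34), a difference that was 0.18 after quantile normalization and -0.03 under normexp background correction. Of 70 cytosolic ribosomal protein genes 11 were called higher and 9 lower, compared to 15.1% and 14.4% of all genes (6 and 11 within scan 1). Their median of 0.03 was -0.02 after quantile normalization and -0.31 under normexp background correction. The differences in this list ran only from -0.30 (Rpl18) to 0.32 (Rps6).

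Chaperones and protein turnover genes showed single members that differed. In protein folding and heat shock 8 of 35 were called higher and 3 lower, compared to 15.1% and 14.4% of all genes. Within scan 1 the counts were 8 and 8 (slide 3 median 0.09), and without female replicate 4 at 78 weeks 8 and 7. Hspa1l ran from -0.89 over -0.72 to -0.54 in young and from -0.19 over 0.06 to 0.48 in old hearts (0.81 ± 0.08, 1.75-fold higher, adjusted p = 4.91e-07), without overlap, and the small heat shock protein Hspb7 of heart muscle was 1.34-fold higher. Hspb7 differed by 0.10 under normexp background correction (adjusted p = 0.708). Pdia4, which folds proteins in the endoplasmic reticulum, was 1.32-fold lower. Among 21 ubiquitin ligase and atrophy genes 4 were called higher and 2 lower, compared to 15.1% and 14.4% of all genes (5 and 4 within scan 1). Trim63, the muscle ligase MuRF1, was 1.22-fold lower (-0.29 ± 0.05), and its relative Trim54 was 1.32-fold higher (0.41 ± 0.08).

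Antioxidant and detoxification enzymes were higher in old hearts in many members. Of 32 tested 14 were called higher and 1 lower, compared to 15.1% and 14.4% of all genes, with a median of 0.15 that turned to -0.10 under normexp background correction. The counts were 13 and 2 within scan 1, and the slide 3 median was 0.17. Beyond Gsta1 and Gsta3, Ces1d, a lipid hydrolase, ran from 3.04 over 3.67 to 4.11 in young and from 4.20 over 4.93 to 5.41 in old hearts (1.16 ± 0.11, 2.24-fold higher, adjusted p = 1.87e-07). Mt1, the metal-binding metallothionein, ran from 2.04 over 2.44 to 3.13 and from 3.14 over 3.27 to 4.14 (0.95 ± 0.13, 1.93-fold higher, adjusted p = 2.01e-05). In neither did old and young hearts overlap, though for Mt1 they nearly touched. Catalase (Cat, 0.32 ± 0.06) and heme oxygenase (Hmox1, 0.50 ± 0.10) were higher, while the superoxide dismutase Sod1 (0.12) and the peroxiredoxins Prdx1 (-0.10, 15 arrays), Prdx2 (-0.14) and Prdx3 (-0.16) were not called.

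A few growth genes of early life were lower. Of 16 tested imprinted and growth genes 5 were called lower and 1 higher, compared to 14.4% and 15.1% of all genes, and the median was -0.04. Scan 1 alone gave 5 lower and 3 higher, and the slide 3 median was 0.07. Slc38a4, an imprinted amino acid transporter, ran from -1.49 over -1.04 to -0.54 in young and from -5.33 over -3.29 to -2.51 in old hearts (-2.33 ± 0.28, adjusted p = 5.07e-06). It was above background in 4 old hearts only, and the difference was -0.33 under normexp background correction (adjusted p = 0.0877) and -0.78 in raw signal, so no fold is given. Igf2, the fetal growth factor, ran from 4.22 over 4.53 to 4.68 and from 3.28 over 3.60 to 4.22 (-0.82 ± 0.10, 1.77-fold lower, adjusted p = 3.37e-06). The RNA-binding Igf2bp2 was 1.83-fold and Grb10, which restrains growth factor receptors, 1.60-fold lower, and no old heart overlapped a young one in these 4 genes. A second Grb10 probe gave -0.13. Igf1 (-0.01) and its receptor Igf1r (-0.05) were not called, and Cdkn1c, an imprinted inhibitor of the cell cycle, was higher (0.43 ± 0.10).

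Genes linked to senescence had 6 of 14 called higher and 2 lower, with a median of 0.19 (6 and 3 within scan 1, slide 3 median 0.09). Gdf15, a stress-induced secreted factor, was higher (2.12 ± 0.47, adjusted p = 0.00204), with young hearts from -5.25 to -1.70, of which 6 were above background, and old hearts from -2.85 to 0.29. Its difference was 0.79 under normexp background correction and 0.97 in raw signal, and no fold is given. Cdkn2a, the cell cycle inhibitor locus used as a marker of senescent cells, was higher (0.73 ± 0.21, adjusted p = 0.0116), but above background in 4 young and 9 old hearts and not called under normexp background correction (0.39, adjusted p = 0.0524), while Cdkn1a was lower (-0.49 ± 0.16). In TGF-beta, endothelin and angiotensin signalling 4 of 28 were called higher and 3 lower, compared to 15.1% and 14.4% of all genes (5 and 6 within scan 1). Ccn2, a matrix-associated growth factor, was 1.49-fold higher (0.57 ± 0.13) and Ltbp2, a latent TGF-beta binding protein, 1.60-fold higher (0.68 ± 0.17), whereas Tgfb1 differed by -0.10.

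**Figure D3:**
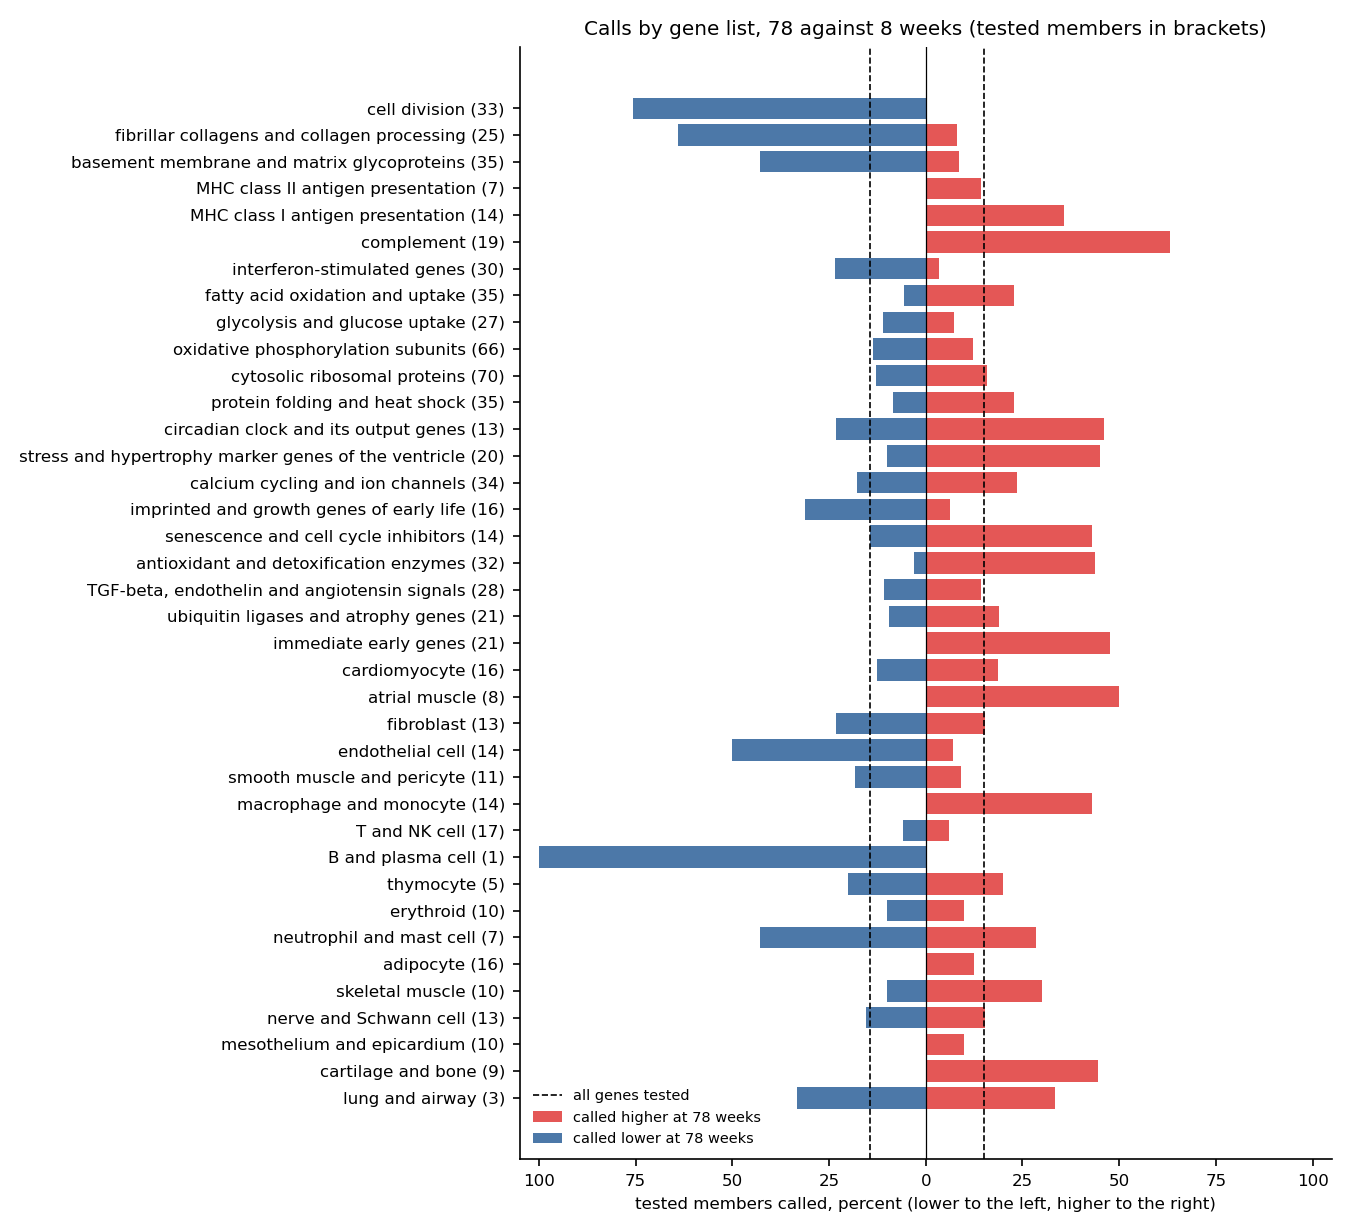
Share of the tested members of each gene list that were called higher (red, right) or lower (blue, left) at 78 weeks, in percent; numbers in brackets are tested members, and dashed lines mark all genes tested (15.1% higher, 14.4% lower). Cell division and collagen lists extend furthest to the left among lists of over 1 member, with 25 of 33 and 16 of 25, and complement furthest to the right, with 12 of 19.

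Markers of other cells that a whole heart can hold were examined beside these groups. Fat cell markers had the widest spread, with 2 of 16 called higher and 0 lower and a median of 0.93 (8 and 0 within scan 1, slide 3 median 1.00). Their summed level ran from 6.41 to 8.48 in young and from 6.42 to 9.39 in old hearts, so the groups overlapped over most of their range. Pck1, an enzyme of fat cells and of liver, ran from -3.93 over -1.24 to 1.08 in young and from -3.15 over 1.66 to 3.54 in old hearts (2.38 ± 0.73, adjusted p = 0.0188). Adipoq (1.34 ± 0.65) and the brown fat gene Ucp1 (1.61 ± 0.91) were not called, but without male replicate 4 at 78 weeks 8 markers of the list were called higher. Cfd, named above among the complement genes, is also on this list, and the part of attached fat in its difference was not tested.

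Atrial markers were higher in 4 of 8 (2 within scan 1), with Gja5, Nppa and Pam called beside the saturated Myl7, while Myl4 (-0.01) and Sln (0.13), which also mark atria, were not called. Their median was 0.27, but -0.07 with normexp background correction, and the summed level ran from 10.3 to 10.5 in young and from 10.5 to 10.9 in old hearts. Cartilage and bone markers had 4 of 9 called higher (6 within scan 1), Spp1, Cytl1 (0.97 ± 0.11), Sox9 (0.36 ± 0.06, with -0.02 from a second probe) and Dmp1 (0.58 ± 0.20), while the cartilage matrix genes Acan, Col2a1 and Hapln1 did not pass the filter on dim probes. The call of Dmp1 was lost without any of 11 arrays. Of 7 neutrophil and mast cell markers 3 were lower, the mast cell proteases Cpa3 (-1.29 ± 0.36), Mcpt1 (-1.08 ± 0.32) and Cma1 (1.78-fold, -0.83 ± 0.24). Another 2 were higher, the tryptases Tpsab1 (0.31 ± 0.07) and Tpsb2 (0.59). Under normexp background correction Cpa3 differed by -0.04 (adjusted p = 0.831) and Mcpt1 by -0.16 (adjusted p = 0.396), so no fold is given for them. For Cpa3, Mcpt1 and Cma1 the highest young heart was that of male replicate 3, and the summed level of the list there was 3.19, against 1.61 to 2.06 in the other young hearts. Without that array 3 markers were called lower and 3 higher.

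Among skeletal muscle genes 3 of 10 were called higher and 1 lower, with Myh2 (1.95 ± 0.35, above background in 3 young hearts, and 0.62 under normexp background correction), Mybpc2 (0.87 ± 0.13) and Myl1 (0.44) higher and Acta1 lower. Of 13 nerve and Schwann cell markers 2 were higher, Uchl1 (1.28) among them, and 2 lower, Sox10 (-0.48) and Pmp22 (-0.26). Of 10 erythroid markers 1 was higher and 1 lower, Tfrc, and of 10 mesothelial markers 1 was higher, Gpm6a (0.57 ± 0.14). Thymocyte markers had Cd1d1 higher (0.70 ± 0.10) and Bcl11b lower (-0.37 ± 0.14) among 5 tested. Of the lung markers Hopx, which the heart itself expresses, was higher and Ager lower among 3 tested, and the surfactant genes did not pass the filter. The single tested marker of plasma cells, Tnfrsf17, was lower (-0.33 ± 0.07). The 16 cardiomyocyte markers had 3 called higher, Myh6, Tnnt2 and Mb, and 2 lower, Pln and Ckm, but 0 higher and 4 lower were called within scan 1, and 0 and 3 after quantile normalization. The spots of Myh6 were saturated, and Tnnt2, another very bright gene, differed by 0.10 after quantile normalization (adjusted p = 0.104). The 13 fibroblast markers had 2 higher, Pi16 and Gsn, and 3 lower, Col3a1, Col1a1 and Dpt (1 and 4 within scan 1). The general fibroblast markers Pdgfra (0.02), Dcn (0.09), Tcf21 (-0.20) and Vim (0.08) were not called. The summed fibroblast level was 8.96 to 9.32 in young and 8.97 to 9.25 in old hearts.

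**Figure D4:**
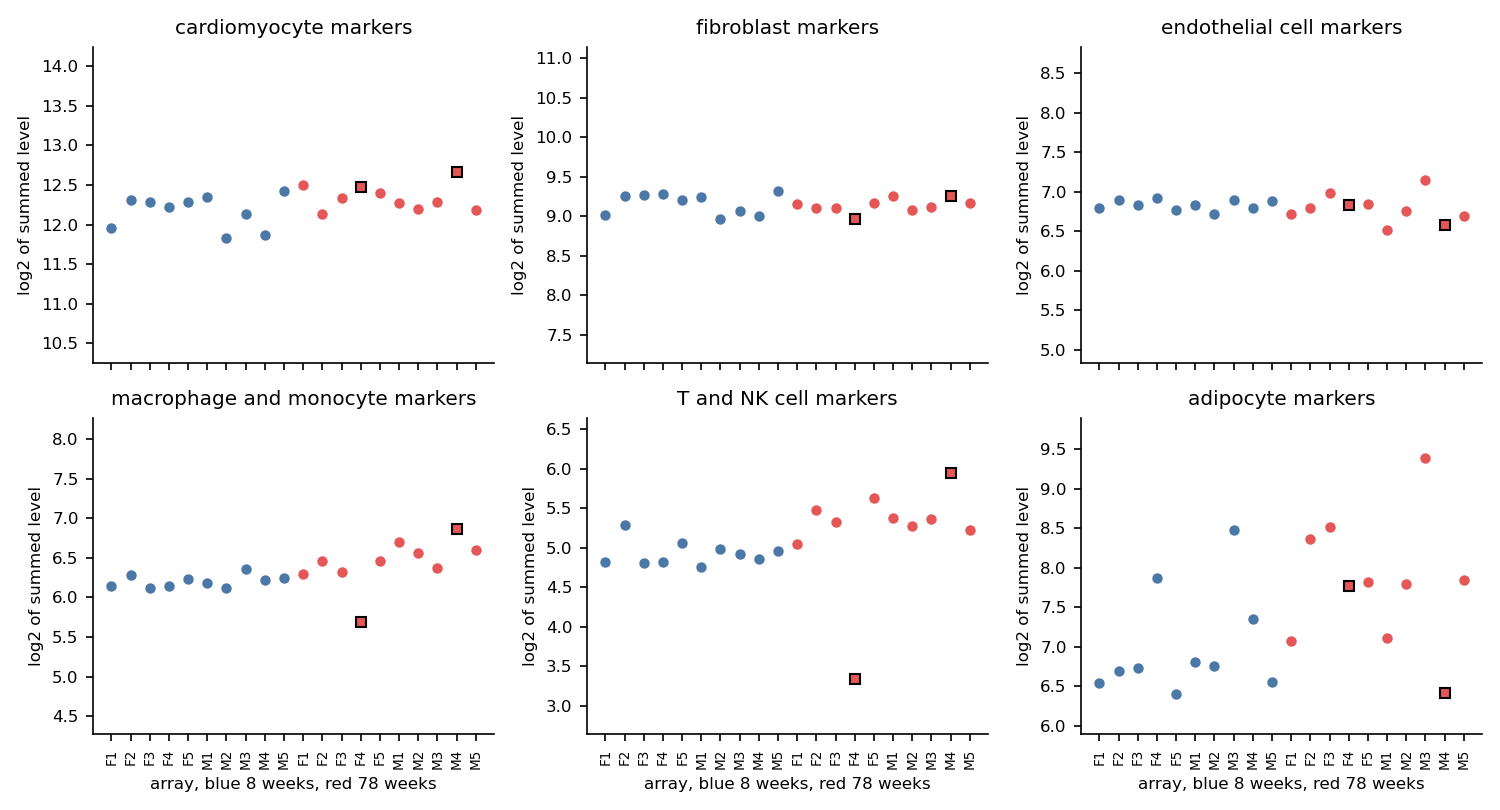
Summed level of 6 cell type marker lists in each array (y axis, log2 of the summed signals over the 75th percentile; x axis, F female and M male with replicate number; blue, 8 weeks; red, 78 weeks; black-edged squares, replicate 4 of each gender at 78 weeks; every panel spans 4 log2 units). The T and NK cell level of female replicate 4 is 3.34, below the other 19 arrays, and the fat cell level varies from 6.41 to 9.39.

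The difference with age was also measured within each gender, as labeled. Among females 2135 genes (12.0%) were called, 1112 higher (6.26%) and 1023 lower (5.76%), and among males 2965 genes (16.7%), 1514 higher (8.53%) and 1451 lower (8.17%). A gene called in 1 gender and not in the other was not thereby shown to differ between them. The test of that difference called 1 gene (0.00563%), while 814 genes (4.58%) had an unadjusted p under 0.05. The gene was Slc4a1, the anion exchanger of red blood cells, which differed by 0.84 in females and by -0.46 in males. Of the 20 fits that left out 1 array, 18 called no gene in this test. With the 2 arrays at odds with their gender label left out, 6 genes were called. None of the 30 leading genes passed the adjusted test between genders. The values in females and males were 2.45 and 2.64 for Maoa and -1.15 and -1.30 for Col4a1, but 1.5 and 2.23 for Penk and -1.01 and -2.27 for Inha (unadjusted p = 0.038 and 0.00498).

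The slides set the limit on all of these results. Within scan 1, with 10 young and 6 old hearts, 6552 genes (36.9%) were called, 3295 higher (18.6%) and 3257 lower (18.3%), and this includes 2314 of the 2678 genes called higher and 2270 of the 2559 called lower with all arrays. When slide was entered as a block, only slide 3 carried the comparison of ages, and 437 genes were called, 239 higher and 198 lower. With the 4 arrays of slide 3 alone 3 genes were called, Cnpy1 among them. Of the 5237 genes called with all arrays, 5117 differed in the same direction within slide 3, whose arrays are also part of the full comparison. This overlap favours equal signs, and the share expected without a difference was not computed. Among 155 named genes that were called, 56 were called in the same direction with slide as a block, among them Maoa, Gsta1, Gsta3, Penk, Spp1, Tfrc, Col3a1, Lox, Col4a1, Plk1, Bub1b, Tef, Bhlhe41, Igf2 and Slc38a4. The other 99 were not called, among them Cdk1, Bmal1, Cfd, Mrc1, Jun and Scn4b and the leading genes Inha and Atp6v1g2.

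**Figure D5:**
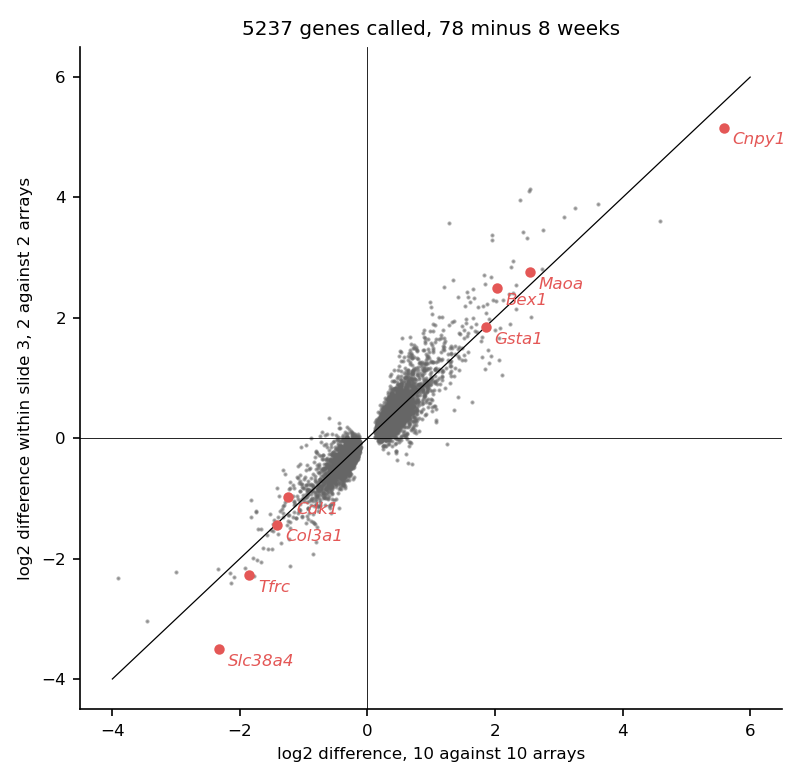
Difference between old and young hearts in the 5237 genes called, with all 20 arrays (x axis, log2 difference) and within slide 3 (y axis, log2 difference, 2 old against 2 young hearts); the line marks equal values and named genes are in red. In 5117 genes both values have the same sign, and Cnpy1 lies at 5.59 and 5.16. The slide 3 arrays are among the 20, which favours equal signs.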

How the data were processed

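Hearts were measured on Agilent whole rat genome arrays, 1 rat per array, and the authors quantified spots with Agilent Feature Extraction. The deposited scanner files hold spot intensity values, background-subtracted and detrended by that software, and other columns that flag spots as above background, saturated or outlying (per the file headers). The authors also deposited tables of the ratio of each signal to the 75th percentile, 1 per age, used here only for 2 Y-linked genes. Here log2 was taken of processed intensity relative to each array's 75th percentile. Control spots and outlier flags were left out, and spots of a probe were averaged. The brightest probe stood for a gene. Genes had to be well above background on at least 10 of 20 arrays and to have 3 values in each gender and age group, the latter added after seeing the data. Of 41012 probes, 21989 matched RefSeq (GRCr8) names and the rest kept the file's name.

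Differences were fitted with limma 3.58.1 (R 4.3.3) with gender as a term, or with 4 groups for effects by gender, and p-values were adjusted by Benjamini-Hochberg over all genes. Named genes were the 15 with the largest difference in each direction, non-overlapping, above background on all arrays and called also in scan 1, genes undetected at 1 age, up to 4 called members of each list by adjusted p, and genes called in the test between genders. The comparison, gene lists and tests were chosen with earlier results of these data known. A few genes met these rules but are not reported here. The fit was tested on simulated data. Alternatives covered background, normalization, filter, probe choice, slide, scan, gender labels, replicate block and each array left out. The number of arrays limits the precision.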

Additional observations from a re-analysis of the deposited data

Results flagged for a closer look

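Within each age the gap between the most extreme array and its neighbour was compared with the range of the group, for 388 groups of arrays. It exceeded Dixon's critical value in 48, while chance alone exceeds it in about 1 in 20 groups. The values in brackets are the gap as a share of the range. Female replicate 4 at 78 weeks held 26 of the 48. It was the lowest old heart in B2m (0.574), C2 (0.505), Col4a1 (0.63), Ctss (0.556), Klrb1a (0.625), Mmp14 (0.509), Myc (0.604), Pfkfb2 (0.48), Pfkp (0.55), Pla2g7 (0.6), Pmp22 (0.67), Psmb8 (0.589) and Racgap1 (0.513). It was the highest in Art1 (0.692), Gpm6a (0.629), Hpd (0.557) and Scn4b (0.591). For summed levels of gene lists it was lowest in T and NK cell (0.651), cell division (0.533), erythroid (0.669), fibrillar collagens and collagen processing (0.518), macrophage and monocyte (0.521) and mesothelium and epicardium (0.669), and highest in skeletal muscle (0.512) and ubiquitin ligases and atrophy genes (0.55). Male replicate 4 at 78 weeks was lowest in Pck1 (0.49) and highest in the summed level of antioxidant and detoxification enzymes (0.552), and male replicate 1 was lowest in Egfl7 (0.535).

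Among young hearts, female replicate 2 was lowest in Map1lc3b (0.571), Mrc1 (0.522) and Tie1 (0.5), and highest in Egfl7 (0.632), Pfkfb2 (0.478) and Pla2g7 (0.528) and in the summed level of smooth muscle and pericyte (0.591). Male replicate 3 was highest in C4a (0.524), Cma1 (0.536), Cpa3 (0.61) and Mcpt1 (0.657), and in the summed levels of complement (0.558) and neutrophil and mast cell (0.715). Male replicate 1 was highest in Hspa2 (0.626) and Prp2l1 (0.54), male replicate 5 in Cdkn2a (0.482) and female replicate 3 in Cebpd (0.5). Female replicate 1 was lowest in Tpsab1 (0.5).

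The difference with age in Slc4a1 was 0.84 in females and -0.46 in males, so that males differed from females by -1.30, the only gene called in that test with all arrays.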

How the results depend on the processing

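With all 20 arrays 5237 genes were called. The count was 2311 under normexp background correction, 8787 (6374 higher, 2413 lower) without a filter on dim probes, 437 with slide as a block and 3 within slide 3. Median centring moved the share of higher calls from 51.1% to 33.8% and the median of all genes from 0.01 to -0.07, and the share was 59.5% under normexp background correction and 72.5% without the filter. In females 2135 genes were called, against 228 under normexp background correction, 1277 under median centring, 1340 without the filter, 183 with slide as a block and 3786 without female and male replicate 4 at 78 weeks, a choice made after seeing the data. In males 2965 were called, against 304 under normexp background correction, 1818 under median centring, 381 with slide as a block and 4644 without both replicate 4 arrays. The difference between genders gave 1 gene, and 0 genes under normexp background correction, without the filter, in scan 1, with slide as a block, with the replicate block and without both replicate 4 arrays. It gave 6 without the 2 arrays at odds with their gender label and 2 without moderation. Members of gene lists called fell from 285 to 118 under normexp background correction, 47 with slide as a block and 0 within slide 3, and named genes from 155 to 89, 56 and 1.

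Leaving out each array in turn gave 4679 to 6616 genes with all arrays, 1469 to 3030 in females, 2245 to 3984 in males, 0 to 1 for the difference between genders, 250 to 362 list members and 146 to 155 named genes. The highest counts of genes came without female replicate 4 at 78 weeks. Under normexp background correction the difference changed sign in Tmeff1 (0.15), B2m (-0.072), Ndufb4 (-0.025), Map1lc3b (-0.12), Myh6 (-0.06), Tnnt2 (-0.072), Pam (-0.081), Myl7 (-0.064), Tnfrsf17 (0.063), Bcl11b (0.12) and Ager (0.056), and after quantile normalization in Myh6 (-0.011). Of 155 called named genes, the difference was over 1.5 times smaller or turned in 91 under normexp background correction and in 41 in raw signal. The normexp offset of 50 shrinks differences of dim signals by construction. Bright genes moved lower instead, such as B2m (0.27 to -0.07), Col4a1 (-1.23 to -1.54) and Rpl18 (-0.30 to -0.65), while the median of all genes was 0.03. Medians of lists of bright genes under normexp background correction were not adjusted for such a shift. The cause of the reversals was not tested. Replicate numbers did not pair the samples, since the correlation of deviations between arrays of the same number and gender ran from -0.21 to 0.19 and 3 of 10 pairs correlated best with their own number. With the replicate block 4706 genes were called (2478 higher, 2228 lower). Dim probes are limited by signal over background, and ages outside slide 3 lie on different slides.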
